A study of Homo sapiens with 12 samples.

Results

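The genes described here encode the proteins of the mitochondrial ribosome. They were chosen by name, as every gene symbol that starts with MRPS or MRPL, for the small and large subunit, followed by a number and at most 1 letter from A to C. The rule found 78 genes among the 58884 in the table, 29 named MRPS and 49 named MRPL. RNA was sequenced from cultured HCC-LM3 and Huh-7 cells, both human hepatocellular carcinoma lines. From each line came untreated wild-type cells and METTL5 knockout cells that had been given a guide RNA against METTL5, the methyltransferase for one m6A site in the 18S rRNA of cytosolic ribosomes. This gave 4 groups of 3 libraries, HCC-LM3 wild type, HCC-LM3 knockout, Huh-7 wild type and Huh-7 knockout. The labels name no clone and no control guide, and they do not say that replicates were separate cultures, so the spread behind the p-values may be only technical.

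The mitochondrial ribosome makes the few proteins that mitochondrial DNA encodes, all of them parts of the respiratory chain and ATP synthase. Its RNAs come from mitochondrial DNA, but its proteins are encoded in the nucleus, made in the cytosol and imported. Some have a relative in bacterial ribosomes, and others were added in mitochondria. In hepatocytes, which are rich in mitochondria, this ribosome sustains oxidative phosphorylation. Names do not always give the place: the products of MRPS30 and MRPS18A sit in the large subunit, and that of MRPS36 is a part of the 2-oxoglutarate dehydrogenase complex. All 3 were kept, since the rule is by name.

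The promoters of these genes are described first, and whether their motifs bear on the changes below was not tested. RefSeq sequence of 250 bases before to 50 bases after the start (GRCh38.p14) was found for 69 of the 78 genes by symbol, with none for MRPL2, MRPL10, MRPL13, MRPL15, MRPL21, MRPL23, MRPL35, MRPS28 and MRPS36. On either strand, CCGGAAG, the core bound by ETS factors, was in 29 of the 69 promoters, which is 42.03%, in 18.3% of the 11247 promoters of tested genes and in 10.7% of all 27305. AAGATGGCG, a site of the factor YY1, was in 18.8% of the members' promoters, 3.70% of those of tested genes and 1.85% of all. GCGCANGCG, a site of NRF1, a regulator of nuclear genes for mitochondria, was in 18.8%, 14.1% and 8.05%. The E-box CACGTG was in 8.70%, 10.1% and 7.43%. These are matches of letters and not shown to be bound, and the motifs were allowed to overlap. Of the 51 promoters of members that were higher in Huh-7 knockout cells, 45.1% held the ETS letters and 15.7% the YY1 letters. For the 12 promoters of members that were lower the counts were 3 and 4.

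Stretches from 120 bases before to 30 after the start are given for 4 members, picked after their values were seen, on the plus strand and with motif matches in capitals. MRPL52 (chr14:22829767-22829916), with 2 YY1 matches and an ETS match, was among those that rose most in Huh-7 knockout cells. MRPL57 (chr13:21176538-21176687), with an NRF1 match, moved in opposite directions in the lines. MRPS9 (chr2:105037949-105038098), also with an NRF1 match, had the largest fall in Huh-7. MRPL42 (chr12:93467394-93467543), with a YY1 match just after its start, was lower in both knockouts.
MRPL52: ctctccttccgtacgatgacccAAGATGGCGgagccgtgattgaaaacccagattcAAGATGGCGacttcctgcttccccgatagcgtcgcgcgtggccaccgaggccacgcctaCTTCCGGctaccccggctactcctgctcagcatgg
MRPL57: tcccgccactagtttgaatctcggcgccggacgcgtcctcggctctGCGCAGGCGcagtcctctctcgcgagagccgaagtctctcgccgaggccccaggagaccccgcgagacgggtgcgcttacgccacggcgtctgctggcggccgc
MRPS9: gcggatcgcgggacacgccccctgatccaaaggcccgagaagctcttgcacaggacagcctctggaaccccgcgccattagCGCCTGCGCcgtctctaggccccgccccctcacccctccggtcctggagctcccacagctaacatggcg
MRPL42: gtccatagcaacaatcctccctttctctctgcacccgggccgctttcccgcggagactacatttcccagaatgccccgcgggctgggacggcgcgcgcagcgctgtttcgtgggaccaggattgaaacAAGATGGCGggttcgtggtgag
In these 4 picked promoters the YY1 letters stood in a member that rose in Huh-7 and in one that fell, and so did those of NRF1. As the 4 were picked by their values, nothing about the motifs follows from this.

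The libraries held 17495280 to 26415554 counts. METTL5 had 0 counts in all 6 knockout libraries, 268 to 327 in HCC-LM3 wild type and 169 to 258 in Huh-7 wild type. All 78 genes were kept by the filter on low counts, and 65 had at least 100 counts in every library. Levels are given as CPM, counts set to a common library total, after scaling by TMM factors, which centre a trimmed mean of log ratios on no change. These factors were 1.06 to 1.102 in Huh-7 wild type but 0.4908 to 0.5098 in Huh-7 knockout, and 1.268 to 1.508 in HCC-LM3. The mean gene length behind a count was 1710 ± 13.8 bases in Huh-7 knockout and 2777 ± 74.3 in Huh-7 wild type (SD, n = 3 each), against 3165 ± 47.4 and 3183 ± 130 for the HCC-LM3 groups. Whether RNA quality or library preparation differed between the groups was not measured, and its part in the Huh-7 changes was not tested. In Huh-7 the size of a fold change, and for some genes its direction, depends on the scaling. Values are with TMM unless another scaling is named, and the counts of members called are given under 6 scalings. Of 10 hepatocyte markers, 3 were at 0 in both HCC-LM3 groups and none in Huh-7, and their sum was 2282 to 3014 CPM in wild-type and 3051 to 3301 in knockout HCC-LM3. In Huh-7 it was 25860 to 26850 in wild type and 55860 to 57810 in the knockout. The sum thus rose there along with most members, but the 10 markers did not rise as a set. With TMM, 5 were called higher, among them KRT18 (1.79) and TTR (1.77), and 5 lower, among them APOB (-4.24) and AFP (-1.54). Their median log2 fold change was 0.12, and -0.99 with library totals. What part this had in the change of the members was not tested.

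Per length, as TPM, which divides counts by gene length and sets each library to one total, the 78 genes together made up 7305 ± 200 TPM in HCC-LM3 wild type and 6381 ± 157 in its knockout, and in Huh-7 they made up 7380 ± 446 in wild type and 8137 ± 60.3 in the knockout (SD, n = 3 each). The libraries of the 2 groups did not overlap in either line, the sum being lower in the HCC-LM3 knockout and higher in the Huh-7 knockout. The sum over MRPL genes was 1.94 times that over MRPS genes in both HCC-LM3 groups, and 2.61 and 2.60 times in Huh-7 wild type and knockout. The lines did not overlap in this ratio, while knockout and wild type of each line differed by less than the spread of their libraries.

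Although their proteins are built into one particle, the mRNAs differed widely in level. MRPS24, a small-subunit protein with a bacterial relative, had the highest mean over the 12 libraries. It was at 540 ± 28.7 TPM in HCC-LM3 wild type, 460 ± 14.7 in its knockout, 474 ± 27.6 in wild-type Huh-7 and 668 ± 10.6 in Huh-7 without METTL5. MRPL11, which sits at the base of the stalk that factors bind, came next and was first in Huh-7, at 696 ± 100 and 670 ± 15.2 TPM, but only 146 ± 7.58 and 144 ± 4.92 in HCC-LM3. At the low end, MRPL50, MRPS31 and MRPL1, the protein of the mobile L1 stalk, had means of 1.99, 2.29 and 2.38 TPM. All 3 were in the lowest 5 of the 78 in every group.

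The spread among members was widest in Huh-7 knockout cells. The ratio of the 90th to the 10th percentile of TPM over the 78 genes was 10.1 in HCC-LM3 wild type, 12.3 in its knockout, 43.6 in wild-type Huh-7 and 164 in Huh-7 without METTL5. Under 5 TPM lay 3, 3, 6 and 19 genes in the same order of groups. Between the Huh-7 groups the 90th percentile went from 255 to 278 TPM and the 10th from 5.85 to 1.69, so the widening lay mostly at the low end.

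**Figure D1:**
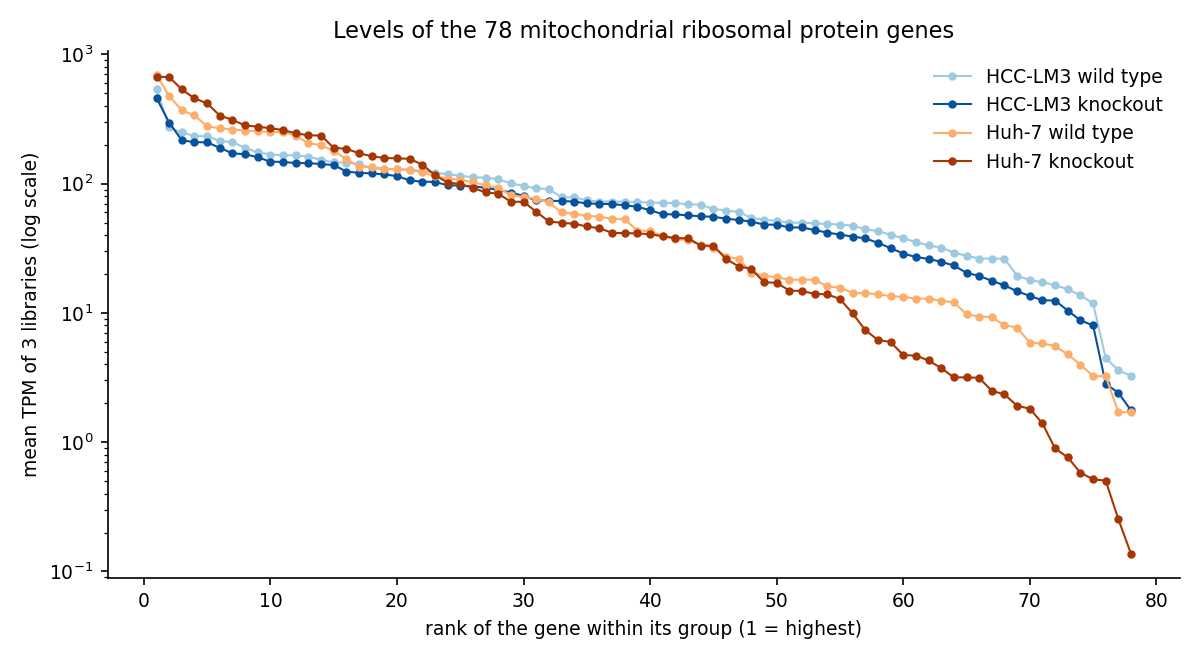
Mean TPM of 3 libraries (log scale) for each of the 78 genes, ranked within each of the 4 groups. The curve of the Huh-7 knockout starts near that of its wild type and ends lowest, with 19 genes under 5 TPM against 6.

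In Huh-7, loss of METTL5 came with a rise of most members and a fall of a smaller group. With TMM scaling, edgeR's quasi-likelihood test called 60 of the 78 genes higher (all genes tested: 31.7%) and 12 lower (43.2%) at an adjusted p under 0.05, and 6 were not called. The median log2 fold change was 1.49, against -0.30 over all 16537 genes tested. Both name groups shared this, with 21 higher and 6 lower of 29 MRPS genes (median 1.42) and 39 higher and 6 lower of 49 MRPL genes (median 1.49). Members with and without a bacterial relative did too: 23 of 29 and 15 of 19 were higher in the large subunit, and 12 of 15 and 6 of 10 in the small one.

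How many members rose depended on the scaling. The median of the members was 1.93 with DESeq2 size factors (all genes 0.00), 0.38 with library totals alone (-1.40), 0.68 with offsets for gene length (0.00) and 0.46 with offsets for GC content and length (0.00). The calls were 64 higher and 10 lower, 46 and 21, 56 and 14, and 61 and 8. Shares of all genes called are given only for TMM and for all 6 scalings together. The counts under other scalings thus stand beside the all-gene medians alone. With the deposited TPM values, tested with limma on log2(TPM + 1), the median was -0.17 (-0.68), and 20 were called higher and 36 lower. Of the 60 genes higher with TMM, 18 were called lower with TPM, among them MRPL2, MRPL10, MRPS2 and MRPS7. Under all 6 scalings the median of the members lay above that of all genes. Called higher under all 6 (all genes tested: 4.50%) were 19 genes: MRPL12, MRPL14, MRPL21, MRPL33, MRPL34, MRPL36, MRPL37, MRPL40, MRPL41, MRPL43, MRPL52, MRPL54, MRPL57, MRPS11, MRPS12, MRPS18A, MRPS21, MRPS24 and MRPS34. Called lower under all 6 (17.5%) were 6 genes, MRPL1, MRPL3, MRPL42, MRPS9, MRPS27 and MRPS31.

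**Figure D2:**
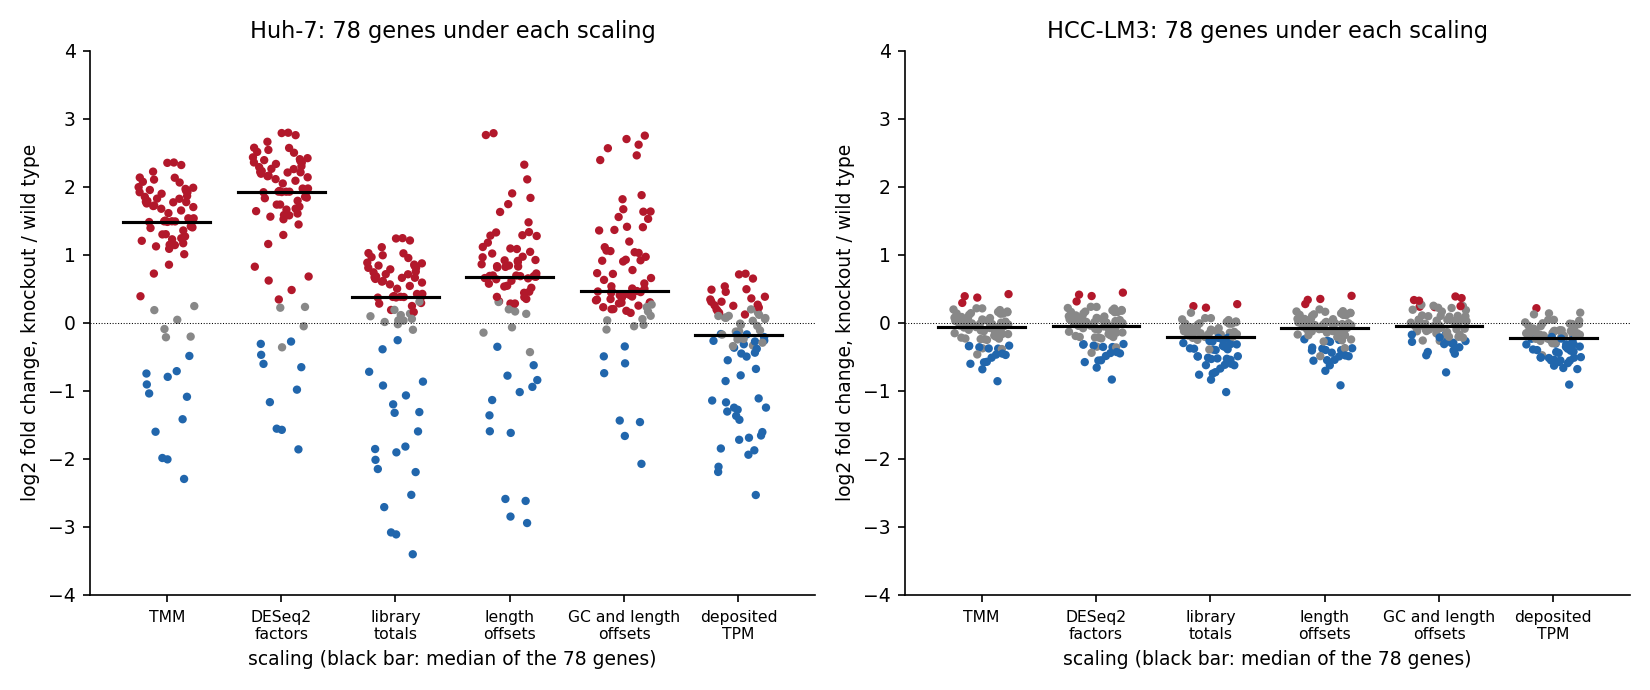
Log2 fold change of each of the 78 genes (points) between knockout and wild type under 6 scalings, in Huh-7 (left) and HCC-LM3 (right). Red and blue mark genes called higher and lower at an adjusted p under 0.05, grey those not called, and black bars the medians. In Huh-7 the median runs from 1.93 down to -0.17, and in HCC-LM3 it stays between -0.22 and -0.04.

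The member that rose most was MRPL41, a large-subunit protein that mitochondria added. Its CPM was 92.8, 103 and 87.7 in the wild-type libraries and 475, 497 and 482 in the knockout libraries, a log2 fold change of 2.36 ± 0.12 (SE, edgeR adjusted p = 1.64e-16). The groups lay far apart, and the change was 0.41 with offsets for GC content and length and 0.72 with TPM. MRPL54, of the same class, went from 71.4, 82.3 and 73.3 to 394, 394 and 371 CPM (2.35 ± 0.11). Again no knockout library came near the wild-type range.

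MRPL57 was at 60.5, 50.8 and 53.0 CPM in wild type and 260, 291 and 270 in the knockout (2.32 ± 0.10). Unlike MRPL41, it kept this size with offsets for GC content and length, at 2.62. Its lowest value over 24 alternatives was 0.65, however, so its size rests on the scaling too. Its name is borne by 5 annotated pseudogenes. MRPL52 went from 135, 142 and 132 to 612, 684 and 613 CPM (2.22 ± 0.11). Both are large-subunit proteins without a bacterial relative.

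Among proteins with a bacterial relative, MRPS24 went from 219, 210 and 194 CPM to 906, 944 and 882 (2.13 ± 0.11). MRPL12, the protein of the stalk that recruits translation factors, went from 158, 166 and 147 to 577, 607 and 572 (1.90 ± 0.11). MRPS12, at the decoding centre of the small subunit, went from 115, 113 and 99.3 to 395, 413 and 387 (1.86 ± 0.11). In all 3 the groups were well separated, and the last 2 were chosen after their values were seen. The other members among the 10 largest increases were MRPL14, MRPL36, MRPS11, MRPL34 and MRPS18A, at 1.995 to 2.14. MRPL11, the most abundant in Huh-7, went from 633, 668 and 570 CPM to 2456, 2521 and 2345 (1.97 ± 0.11), yet its TPM was level between the groups, so its rise rests on the scaling.

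The largest fall was that of MRPS9, a small-subunit protein whose bacterial relative touches the tRNA. Its CPM was 8.86, 10.1 and 9.12 in wild type and 2.07, 1.63 and 1.98 in the knockout, a change of -2.29 ± 0.19 (edgeR adjusted p = 9.45e-13), and between -3.40 and -1.86 under the other 5 scalings. MRPL1 went from 3.55, 4.03 and 3.75 to 0.986, 1.05 and 0.769 CPM (-2.01 ± 0.30), on 7 to 10 counts a knockout library. MRPS31 went from 2.16, 2.45 and 1.82 to 0.493, 0.350 and 0.769 (-1.99 ± 0.36), on 3 to 7 counts. The last 2 falls rest on few counts, though no knockout library reached the wild-type range.

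MRPL42 went from 16.2, 17.0 and 17.7 CPM to 8.48, 5.01 and 5.39 (-1.42 ± 0.16). MRPS27, an RNA-binding protein of the small subunit, went from 33.7, 34.5 and 33.5 to 18.9, 14.8 and 20.4 (-0.91 ± 0.11). MRPL3, which reaches towards the peptidyl transferase centre, went from 26.1, 28.8 and 26.1 to 17.5, 14.5 and 16.3 (-0.75 ± 0.11). These 3 complete the group that was lower whatever the scaling.

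With TMM the other 6 genes called lower were MRPL50, MRPS10, MRPL39, MRPS35, MRPS30 and MRPL19. Their values ran from -1.60 in MRPL19 to -0.49 in MRPS30. With offsets for GC content and length, MRPL19, MRPL50 and MRPS30 turned to 0.72, 0.58 and 0.23. MRPL39 was called although its groups overlapped. The 6 genes not called were MRPL30, MRPL32, MRPL44, MRPL47, MRPS5 and MRPS22, at -0.21 to 0.25.

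**Figure D3:**
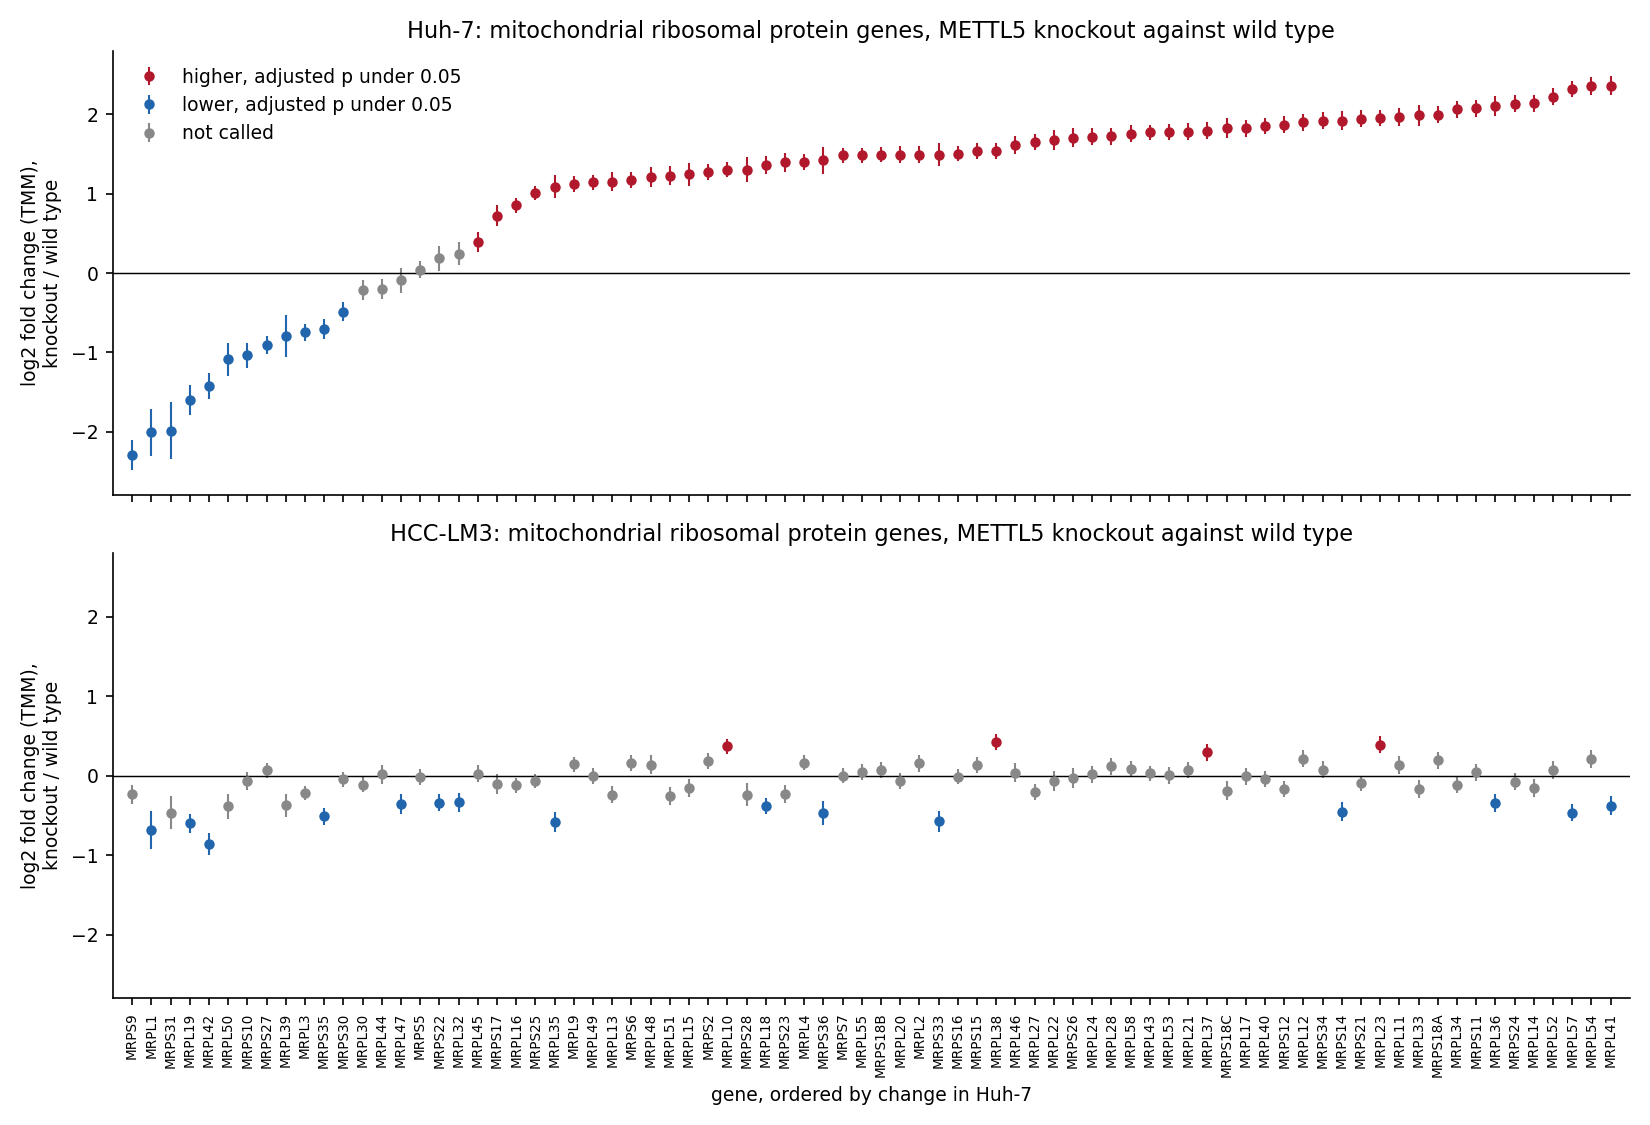
Log2 fold change (TMM) with its SE for the 78 genes in Huh-7 (top) and HCC-LM3 (bottom), both in the order of the Huh-7 change. The Huh-7 values run from -2.29 to 2.36, and those of HCC-LM3 from -0.86 to 0.42 on the same axis.

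The members that fell in Huh-7 had AT-rich transcripts. GC content was 35.0% to 44.3% in the 12 that were lower (median 41.99%) and 39.0% to 71.9% in the 60 that were higher (median 52.7%). All 40 members with at least 50% GC were higher. Of all genes tested, 35.3% were higher at 50% to 54% GC, 48.3% at 54% to 58% and 54.6% from 58%. In every range of GC content the median of the members lay above that of all genes: under 42% the medians were -0.49 (11 members) and -1.88, and from 58% they were 1.82 (14 members) and 0.66. Short genes were also higher in general, with a median of 1.56 over all genes under 750 bases and 1.87 over the 12 members there. The part of composition and length in these changes was not tested beyond the offsets. With offsets for both, 61 members were called higher, 55 of them shared with the 60, MRPL55 turned to lower, and the median was 0.46 in place of 1.49.

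**Figure D4:**
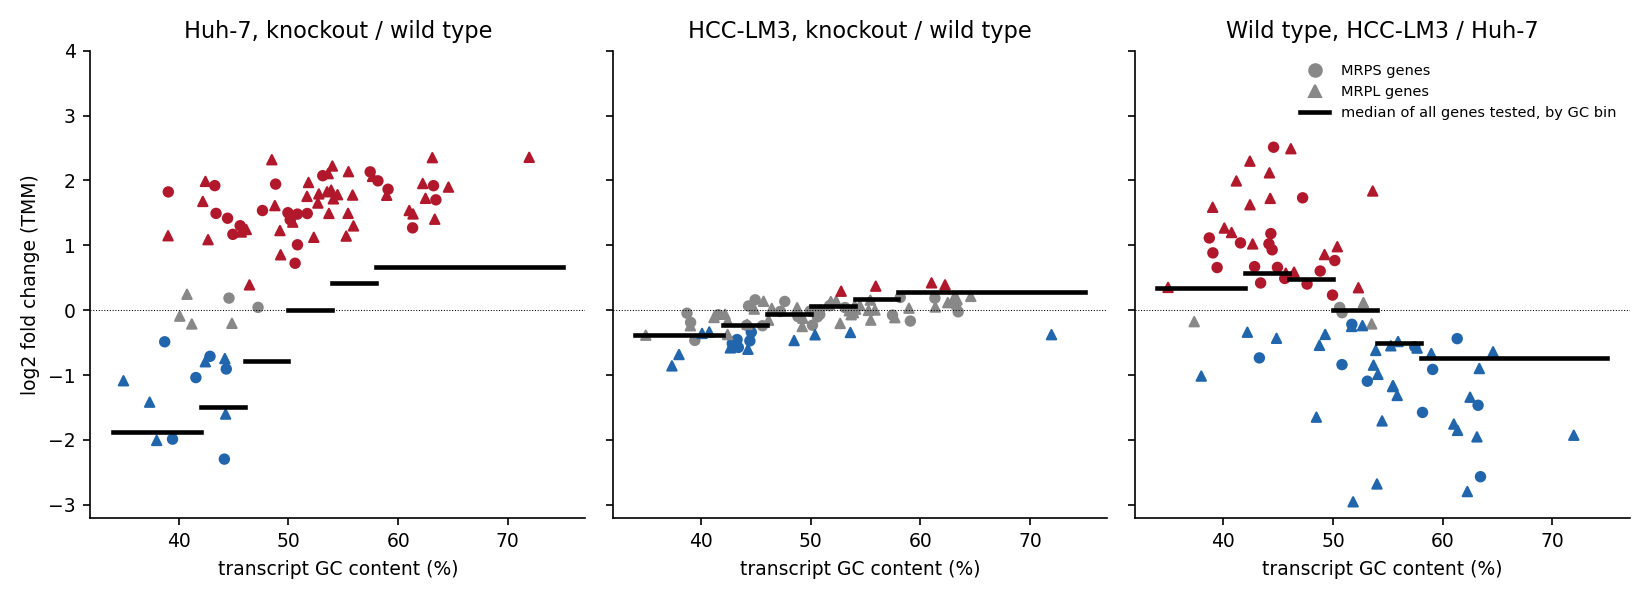
Log2 fold change (TMM) against transcript GC content for the 78 genes (circles MRPS, triangles MRPL) in 3 comparisons. Red and blue mark genes called higher and lower, grey those not called, and black lines the median of all genes tested in each GC range. In Huh-7 most of the members lie above the black lines. Between the wild-type cell lines the 24 members with at least 54% GC are all lower in HCC-LM3, and the medians of all genes there are negative too.

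In HCC-LM3 fewer members were called than in Huh-7, as was so over all genes tested, and their changes were smaller. edgeR called 4 of the 78 higher (all genes tested: 14.0%) and 15 lower (12.9%), and 59 were not called. The median was -0.06, against 0.00 over all genes. All 4 that rose were MRPL genes, while those that fell were 5 MRPS and 10 MRPL genes. No called change reached 1 on the log2 scale.

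MRPL42, a large-subunit protein with no bacterial relative, fell most. It was at 14.2, 14.3 and 16.7 CPM in wild type and 8.30, 7.66 and 8.87 in the knockout (-0.86 ± 0.14, edgeR adjusted p = 3.10e-05). MRPL19 was at 21.7, 24.1 and 25.6 CPM in wild type and 14.2, 16.8 and 16.0 in the knockout (-0.60 ± 0.12). MRPS35 was at 29.4, 34.8 and 32.7 and then 22.93, 22.97 and 22.1 (-0.51 ± 0.11). In these 3 every knockout library was below every wild-type library.

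The other genes called lower were MRPL1, MRPL18, MRPL32, MRPL35, MRPL36, MRPL41, MRPL47, MRPL57, MRPS14, MRPS22, MRPS33 and MRPS36, at -0.68 to -0.34. MRPL18, MRPL36, MRPL41, MRPL42, MRPL57 and MRPS33 were called lower under all 6 scalings (all genes tested: 4.10%). MRPL41 was at 30.8, 22.6 and 21.3 CPM in wild type and 16.4, 18.6 and 22.5 in the knockout, so its groups overlapped.

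The 4 genes called higher were MRPL38, MRPL23, MRPL10 and MRPL37. MRPL38 had the largest value and was at 51.1, 37.9 and 40.4 CPM in wild type and 55.7, 55.2 and 62.4 in the knockout (0.42 ± 0.10). MRPL10, which anchors the stalk proteins, was at 54.4, 43.4 and 44.6 and then 59.3, 62.7 and 62.0 (0.37 ± 0.09). MRPL23, next to the exit of the peptide tunnel, was at 19.1, 14.2 and 13.5 and then 19.4, 21.0 and 20.8 (0.39 ± 0.11). The groups did not overlap in these 3 and did in MRPL37. None of the 4 was called under all 6 scalings (all genes tested: 3.90%).

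One wild-type library weighed on these counts. Wild-type replicate 1 of HCC-LM3 stood apart, with a TMM factor of 1.33 and a mean log2 CPM over the members of 5.34, against 5.07 and 5.08 in its replicates. Without it 18 members were called higher and 15 lower, and the median was 0.04. The share of all genes called in that run is not given here. The totals called were 11 to 33 over the runs that left out 1 library each. GC content moved with the result here too: the 15 lower genes had a median of 43.4%, and the 4 higher genes 58.5%. With library totals alone, 3 were called higher and 35 lower, and with TPM 1 and 33. The medians were then -0.21 (all genes -0.12) and -0.22 (all genes -0.07).

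The 2 knockouts differed in size and in part in direction. A test of the difference between the effects (HCC-LM3 minus Huh-7) called 71 of the 78 genes, 10 higher in HCC-LM3 (all genes tested: 37.7%) and 61 lower (23.9%), with a median of -1.51 (all genes 0.39). Under all 6 scalings 22 genes had the more negative effect in HCC-LM3 (all genes tested: 4.15%) and 4, MRPL1, MRPS9, MRPS27 and MRPS31, the higher one (14.4%). With TPM the split was 29 and 23 and the median was -0.02 (all genes 0.59), so the majority turned under that scaling. With library totals the split was 18 and 49 (median -0.54, all genes 1.32). With offsets for GC content and length it was 6 and 57 (median -0.57, all genes 0.02).

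Called lower in HCC-LM3 and higher in Huh-7 were 8 genes, MRPL18, MRPL35, MRPL36, MRPL41, MRPL57, MRPS14, MRPS33 and MRPS36, and none were called the other way round (all genes tested: 1.43% and 4.31%). With offsets for GC content and length 13 members were lower and higher in this way (3.06%), 5 of the 8 among them, and MRPS27 was called the other way round (3.08%). With TPM there were 10 (0.961%), 3 of the 8 among them, and none the other way round (3.83%). MRPL57 had the widest gap, 20.3, 16.7 and 15.5 CPM against 13.02, 11.7 and 13.1 in HCC-LM3 (-0.47 ± 0.11) beside its rise of 2.32 in Huh-7. Their difference was -2.79 ± 0.15 (edgeR adjusted p = 8.55e-17). MRPL36, a short protein with a bacterial relative, went from 43.3, 34.4 and 35.0 to 30.04, 27.6 and 31.0 CPM in HCC-LM3 and from 10.6, 10.8 and 10.1 to 50.5, 47.8 and 37.3 in Huh-7, a difference of -2.45 ± 0.17. Opposite moves of MRPL36, MRPL41 and MRPL57 were called under each of the 6 scalings. All 6 kept HCC-LM3 wild-type replicate 1, which stood apart, and the HCC-LM3 groups of MRPL41 overlapped. Whether the HCC-LM3 calls of MRPL36 and MRPL41 hold without that library is not given here. MRPS36, the member outside the ribosome, was at -0.47 and 1.42. Its HCC-LM3 call was lost with offsets for GC content and length (-0.22, edgeR adjusted p = 0.2865) and without HCC-LM3 wild-type replicate 1 or knockout replicate 1 or 2 (0.05753, 0.1051 and 0.07005).

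Lower in both lines were MRPL1, MRPL19, MRPL42 and MRPS35, and higher in both were MRPL10, MRPL23, MRPL37 and MRPL38. MRPL42 is the only one of these 8 that was called in the same direction in both lines under all 6 scalings. Shares of all genes called in the same direction in both lines are not given here. For MRPS35 the 2 effects did not differ beyond their error (0.20 ± 0.16, edgeR adjusted p = 0.312).

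**Figure D5:**
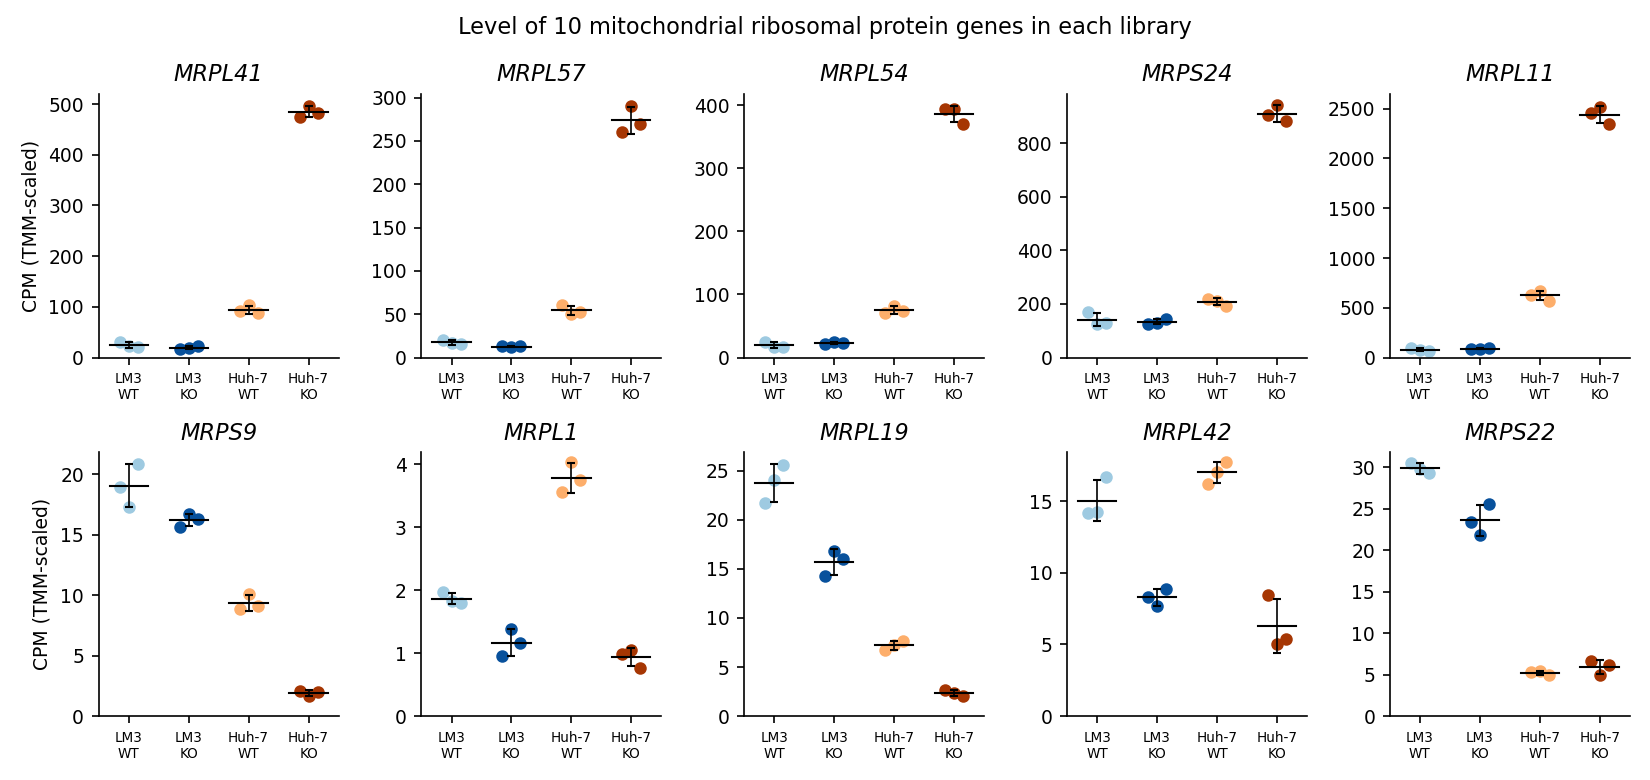
TMM-scaled CPM of 10 genes in each of the 12 libraries (points), with the mean (bar) and SD (n = 3) of each group, each panel on its own axis from 0. The top row holds 5 genes that were higher in Huh-7 knockout cells, and in the bottom row MRPS9, MRPL1, MRPL19 and MRPL42 were lower there and MRPS22 was not called.

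The wild-type lines themselves differed in nearly every member. edgeR called 34 genes higher in HCC-LM3 than in Huh-7 (all genes tested: 41.8%) and 39 lower (41.0%), with a median of -0.21 (all genes 0.03). With TMM, 17 MRPS genes were higher and 10 lower (median 0.42), and 17 MRPL genes were higher and 29 lower (median -0.43). Medians of each name group under other scalings are not given here, so no side is read from the names. The sign of the members' median rests on the scaling. It was 0.20 with library totals (40 higher, 27 lower) and 0.23 with offsets for GC content and length (38 and 29). With length offsets alone it was 0.20 (38 and 30), and with TPM 0.50 (50 and 21). The medians of all genes were 0.46, 0.01, 0.04 and 0.44 in the same order. Of the 78 genes, 31 were called higher under all 6 scalings (all genes tested: 35.7%) and 21 lower (26.5%). Both are near the shares of all genes. Of the 39, 6 were called higher with offsets for GC content and length, MRPL12, MRPL27, MRPL34, MRPL43, MRPS2 and MRPS24.

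MRPL11 differed most. It was at 97.1, 74.1 and 70.5 CPM in wild-type HCC-LM3 and 633, 668 and 570 in wild-type Huh-7 (-2.95 ± 0.12, edgeR adjusted p = 8.40e-22). MRPL23, MRPL52 and MRPS26 followed, at -2.79, -2.68 and -2.57. On the other side MRPS22 was at 30.6, 29.7 and 29.3 CPM in HCC-LM3, while the Huh-7 libraries held 5.31, 5.39 and 4.96 (2.51 ± 0.13). MRPL15, MRPL39 and MRPL3 followed, at 2.49, 2.30 and 2.12. In all of these the lines were far apart in every library.

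GC content moved with this comparison as well, in the opposite direction. The 24 members with at least 54% GC were all lower in HCC-LM3, and of the 28 with less than 46%, 23 were higher and 4 lower. All genes tested leaned the same way. Their medians were -0.50 at 54% to 58% GC and -0.735 from 58%, with 31.9% and 28.2% called higher. Under 42% and at 42% to 46% the medians were 0.34 and 0.58, with 47.5% and 54.5% called higher. Some chromosomes serve as examples. The 3 members on chromosome 8 were all higher in HCC-LM3 (median of all tested genes there 0.86), and 6 of 8 on chromosome 2 were (0.05). The 4 on chromosome 19 were all lower (-0.86). On chromosome 17, 2 were higher and 6 lower (0.06), and both members on chromosome 15 were lower (0.36). Copy number was not measured.

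Genes that work with the mitochondrial ribosome were read beside it. Of 5 ribosomal proteins with other symbols, GADD45GIP1 (2.16), CHCHD1 (1.94) and AURKAIP1 (1.87) rose in Huh-7 knockout cells and PTCD3 fell (-1.27), while DAP3, a GTP-binding protein of the small subunit, was at 0.14. With offsets for GC content and length PTCD3 was at 1.01, GADD45GIP1 at 1.21, CHCHD1 at 1.56 and AURKAIP1 at 0.29. In HCC-LM3, PTCD3 fell by 0.54 and the other 4 were not called. Another 29 genes serve assembly of the particle and modification of its RNA. In Huh-7, 20 of them were higher (all genes tested: 31.7%) and 6 lower (43.2%). In HCC-LM3, 3 were higher (14.0%) and 4 lower (12.9%), which is near those shares. Their Huh-7 median was 0.85 with TMM, 0.46 with offsets for GC content and length and -0.26 with library totals.

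Of 16 translation factors of mitochondria, 6 were higher and 9 lower in Huh-7 (median -1.12), where 31.7% and 43.2% of all genes tested were. In HCC-LM3, 0 were higher (all genes tested: 14.0%) and 5 lower (12.9%). MTIF2, the initiation factor that brings the first tRNA, went from 5.65 ± 0.19 to 0.755 ± 0.084 CPM in Huh-7 (SD, n = 3 each), a change of -2.90 ± 0.26, and in HCC-LM3 it changed by -0.54. GFM1, an elongation factor, was at -2.11 and -0.64. LRPPRC, which stabilises mitochondrial mRNAs, was at -2.18 and -0.79, while its partner SLIRP was at 2.01 and -0.11 (not called). With offsets for GC content and length the Huh-7 median of the 16 genes was 0.00, and LRPPRC was at 0.16.

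The RNAs of the particle come from mitochondrial DNA. With TMM scaling both rose in Huh-7 knockout cells, MT-RNR1, the small-subunit rRNA, by 1.02 ± 0.11 and MT-RNR2, the large-subunit rRNA, by 0.50 ± 0.10, and neither was called in HCC-LM3. Of the 13 mRNAs it translates, 9 were higher (all genes tested: 31.7%) and 3 lower (43.2%) in Huh-7. In HCC-LM3, 7 were higher (14.0%) and 0 lower (12.9%). MT-ND3 rose by 1.77 in Huh-7 and MT-ND5 fell (-1.45). The Huh-7 medians of the rRNAs and mRNAs were 0.76 and 0.68 with TMM, 0.83 and 0.37 with offsets for GC content and length, and -0.35 and -0.42 with library totals, so their direction turns with the scaling.

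Other large complexes moved in Huh-7 as well. Of 77 cytosolic ribosomal protein genes 76 were higher (median 2.09). Of 37 nuclear genes for complex I 33 were higher and 3 lower (median 1.75). Over all genes tested, 31.7% were higher and 43.2% lower. In HCC-LM3 the cytosolic genes had 15 higher and 0 lower (0.15), and those for complex I 5 and 2 (0.01). There 14.0% of all genes tested were higher and 12.9% lower. With library totals alone the Huh-7 medians were 0.98 and 0.64, against 0.38 for the 78 genes. The rise in Huh-7 thus extended to both of these groups.

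Some values carry a limit from the annotation. In GENCODE 29, 41 of the 78 genes share exonic bases with another gene, 34 of them with a protein-coding one, and 34 have annotated pseudogenes that bear their names, 75 in all. MRPS24 shares 606 bases with URGCP-MRPS24, and MRPL43 1170 with SEMA4G. MRPS21 has 8 such pseudogenes, MRPL57 and MRPS36 5 each and MRPL42 and MRPS31 4 each. How reads were shared between such genes, and whether strand was used, is not given in the sources used here, so these levels are uncertain. In bulk RNA, fewer cells with a transcript and less of it per cell cannot be told apart.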

How the data were processed

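The table the authors deposited gives, per the file headers, the length of each gene and, for every library, expected counts and TPM values. The submitters' processing notes list Bowtie 0.12.2 together with mm8 and mm9, which are mouse builds. Which human build, counting tool and strand setting were used is not given in the sources used here. The expected counts were rounded and tested with edgeR 4.0.16 (R 4.3.3): filterByExpr (16537 genes kept), TMM, a robust quasi-likelihood fit to all 12 libraries (8 residual degrees of freedom), and Benjamini-Hochberg adjustment over all genes tested. A gene was called at an adjusted p under 0.05, two-sided. A standard error was taken from the F statistic. TPM values were tested with limma 3.58.1 as log2(TPM + 1), a scale that understates changes of low genes. Offsets were splines of log counts on GC content and length per library. Coordinates, GC content and overlaps came from GENCODE 29 (GRCh38), which held 99.54% of the identifiers. The alternatives also included the DESeq2 1.42.0 Wald test, limma-voom, other filters, separate fits per comparison, a replicate block, stricter thresholds and leaving out each library. The fit was tested on simulated data. The members and lists were chosen with earlier results of these data known. The rule for named genes took the 10 largest changes per direction, members against the majority, members called in opposite directions and the 5 highest and lowest by TPM, and not all are printed. The list of mitochondrial ribosomal proteins with other symbols held 2 older names of members, which were not counted again. With 3 libraries against 3, an exact permutation test cannot go below p = 0.1.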

Additional observations from a re-analysis of the deposited data

Results flagged for a closer look

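The knockout effect differed between the lines in 71 of the 78 genes by the edgeR test of the difference. Of these, 10 were higher in HCC-LM3 (all genes tested: 37.7%) and 61 lower (23.9%), so many other genes differed as well. Values below are HCC-LM3 minus Huh-7 in log2 units with TMM scaling. With the deposited TPM values 52 genes were called, and the share of all genes called with TPM is not given here.

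In the 8 members called lower in HCC-LM3 and higher in Huh-7 the difference was -2.79 in MRPL57, -2.73 in MRPL41, -2.45 in MRPL36, -2.37 in MRPS14, -2.07 in MRPS33, -1.89 in MRPS36, -1.74 in MRPL18 and -1.67 in MRPL35. In the 4 members called higher in both lines it was -1.56 in MRPL23, -1.50 in MRPL37, -1.11 in MRPL38 and -0.93 in MRPL10. In other members that rose in Huh-7 it was -2.29 in MRPL14, -2.21 in MRPS24, -2.18 in MRPL34, -2.15 in MRPL52, -2.15 in MRPL33, -2.14 in MRPL54, -2.03 in MRPS11 and -1.80 in MRPS18A.

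Among members that fell in Huh-7 the difference had the other sign. It was 2.06 in MRPS9, 1.52 in MRPS31, 1.32 in MRPL1, 1.00 in MRPL19, 0.97 in MRPS27, 0.97 in MRPS10, 0.70 in MRPL50, 0.56 in MRPL42, 0.53 in MRPL3 and 0.44 in MRPS30. With DESeq2 size factors the differences of MRPL50, MRPL42, MRPL3 and MRPS30 were 0.29, 0.15, 0.12 and 0.03 (edgeR adjusted p = 0.3669, 0.5824, 0.5123 and 0.9268) and no longer called. Leaving out single libraries also ended the call of MRPL42 (HCC-LM3 wild-type replicate 1 or 2, HCC-LM3 knockout 1 or 3, Huh-7 wild-type 2, Huh-7 knockout 2 or 3), of MRPL50 (HCC-LM3 wild-type 2, HCC-LM3 knockout 1 or 2, Huh-7 knockout 2 or 3) and of MRPS30 (HCC-LM3 wild-type 3, Huh-7 wild-type 2). The fall of MRPL1 and MRPS31 in Huh-7 rests on at most 10 counts in each knockout library.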

How the results depend on the processing

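In HCC-LM3, 19 of the 78 genes were called, and 38 with library totals alone, 34 with deposited TPM, 11 at an adjusted p under 0.01, 0 when the log2 fold change also had to reach 1 in size and 11 to 33 with 1 library left out. Without wild-type replicate 1 of HCC-LM3 the majority turned to higher (18 against 15), and without its knockout replicates 1 and 2 the totals were 11 and 12. In Huh-7, 72 were called and 56 with TPM, where the majority was lower and the median -0.17. For the difference between the lines 71 were called, and 52 with TPM, where more were higher. Between the wild-type lines 73 were called, 35 with that limit on size. More were higher there, with the median turned to positive, under library totals (67 genes, 0.20), GC content and length offsets (67, 0.23), length offsets (68, 0.20), the replicate block with GC content and length offsets (67, 0.23) and TPM (71, 0.50). In Huh-7, MRPL19 turned to 0.72 with GC content and length offsets, 0.31 with length offsets and 0.72 with the replicate block and GC content and length offsets, and its difference between the lines to -1.15, -0.86 and -1.15. MRPL50 turned to 0.58 with GC content and length offsets and 0.57 with the block as well, its difference to -0.53 and -0.52, and MRPS30 to 0.23 and 0.23. The cause was not tested, and the shares of all genes called under these alternatives are not given here.

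Of 76 results for named genes under 1804 alternatives in all, 1711 kept direction and call, 81 kept direction only and 12 changed sign. Replicate numbers are shared by the groups, but deviations of same-numbered libraries correlated at -0.11 to 0.08, so the numbers were not taken to pair them. With the replicate number as a block alone, 19 genes were called in HCC-LM3, 72 in Huh-7, 71 for the difference and 72 between the wild-type lines. Depth limits mainly MRPL1, MRPS31 and other members with few counts in Huh-7 knockout libraries.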
